A study of Mus musculus with 16 samples.

Results

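This account follows 32 mouse genes of glycolysis and the hypoxia response among the 16039 genes measured in single cells of the transverse colon. They were listed by name and fall into 14 core glycolysis genes (Hk1, Hk2, Gpi1, Pfkl, Pfkp, Pfkfb3, Aldoa, Tpi1, Gapdh, Pgk1, Pgam1, Eno1, Pkm and Ldha), 4 genes of the HIF oxygen-sensing axis (Hif1a, Epas1, Egln1 and Egln3) and 14 HIF targets and hypoxia genes (Vegfa, Adm, Ankrd37, Bnip3, Bnip3l, Ndrg1, Pdk1, Higd1a, Mxi1, Kdm3a, Ddit4, Bhlhe40, P4ha1 and P4ha2). All 32 were found in the data, and 29 passed a test in at least 1 of 12 comparisons between groups of mice, as did 53.5% of the 13891 genes tested in any of them. The series asked what FZD-directed Wnt activation does in a colon injured by dextran sulfate sodium (DSS), a polymer that damages the colonic epithelium. All 16 mice were C57Bl/6J females, 7 weeks old before acclimatization, and each gave 1 library. The SZN-1326-p mice drank 4% DSS throughout, were given SZN-1326-p, an antibody-based activator of Wnt signalling, at 10 mg/kg on day 4, and were taken after 24 h (day 5) or 48 h (day 6), with 3 mice at each time. The anti-GFP mice had the same DSS and were given an anti-GFP control antibody, also at 10 mg/kg on day 4. They too comprised 3 mice at each time. The uninjured mice comprised 2 at each time, and no antibody is named for them. DSS injury was therefore read from 6 anti-GFP mice against 4 uninjured mice, and the antibody effect from 3 SZN-1326-p mice against 3 anti-GFP mice at each time.

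Glycolysis splits glucose to pyruvate and lactate in the cytosol, and its rate is set mainly at the hexokinase, phosphofructokinase and pyruvate kinase steps. When oxygen is scarce, the prolyl hydroxylases encoded by Egln1 and Egln3 slow down, HIF-1α and HIF-2α (Hif1a and Epas1) persist, pair with ARNT and bind the short DNA core RCGTG near genes for glycolytic enzymes, angiogenic factors and mitophagy. The colonic surface epithelium normally sits at low oxygen beside an anaerobic lumen, and HIF signalling there is known for its part in barrier maintenance. Neutrophils and monocytes that enter inflamed tissue depend heavily on glycolysis. HIF proteins are regulated largely by degradation, which an mRNA count does not see.

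The RCGTG core was looked up in RefSeq promoter windows of build GRCm38.p6, each running from 250 bases before to 50 bases after an annotated start. Windows were at hand for 28 of the 32 genes, and Bhlhe40, Bnip3l, Epas1 and Ndrg1 had none. ACGTG on either strand occurred in 20 of the 28 genes, or 71.4%, against 21.8% of all 27025 genes with a window. GCGTG on either strand occurred in 19 genes, or 67.9%, against 35.2% of all genes, and at least 1 of the motifs in 26 genes, or 92.9%, against 46.7%. A palindromic CACGTG counts on both strands. Gpi1 and Tpi1 held neither motif in these windows. Below, 4 windows are shown for genes whose levels carry the results: P4ha1, a subunit of collagen prolyl hydroxylase, Higd1a, a mitochondrial inner membrane protein, Ldha, the lactate dehydrogenase subunit that favours lactate, and Ankrd37, an ankyrin-repeat protein known as a HIF-1 target. Capitals mark ACGTG or GCGTG and their reverse complements CACGT and CACGC, and a match is a run of letters, not evidence of binding. The P4ha1 window lies at chr10:59323046-59323345 on the plus strand, with 1 ACGTG and 2 GCGTG matches. The Higd1a window lies at chr9:121857747-121858046 on the minus strand, with 1 ACGTG and 2 GCGTG matches. The Ldha window, 1 of 2 for that gene, lies at chr7:46845554-46845853 on the plus strand, with 5 ACGTG and 2 GCGTG matches. The Ankrd37 window lies at chr8:45999801-46000100 on the minus strand, with 2 matches of each kind.
P4ha1: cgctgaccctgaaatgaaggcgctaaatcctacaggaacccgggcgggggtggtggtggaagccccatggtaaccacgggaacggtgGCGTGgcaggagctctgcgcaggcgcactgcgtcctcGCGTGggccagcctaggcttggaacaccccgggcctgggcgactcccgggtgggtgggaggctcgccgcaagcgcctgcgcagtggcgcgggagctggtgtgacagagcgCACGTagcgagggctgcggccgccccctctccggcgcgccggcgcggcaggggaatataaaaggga
Higd1a: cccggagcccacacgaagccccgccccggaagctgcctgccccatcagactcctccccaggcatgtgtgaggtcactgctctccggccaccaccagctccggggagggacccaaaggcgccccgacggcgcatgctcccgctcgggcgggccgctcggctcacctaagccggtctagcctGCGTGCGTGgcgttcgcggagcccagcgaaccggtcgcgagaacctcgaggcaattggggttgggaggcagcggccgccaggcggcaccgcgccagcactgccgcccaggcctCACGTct
Ldha: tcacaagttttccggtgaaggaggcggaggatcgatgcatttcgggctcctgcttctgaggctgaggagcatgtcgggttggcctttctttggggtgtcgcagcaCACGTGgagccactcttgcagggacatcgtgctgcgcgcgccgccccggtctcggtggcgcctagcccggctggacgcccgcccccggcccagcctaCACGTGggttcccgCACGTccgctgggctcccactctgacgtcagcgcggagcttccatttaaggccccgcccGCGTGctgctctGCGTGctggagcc
Ankrd37: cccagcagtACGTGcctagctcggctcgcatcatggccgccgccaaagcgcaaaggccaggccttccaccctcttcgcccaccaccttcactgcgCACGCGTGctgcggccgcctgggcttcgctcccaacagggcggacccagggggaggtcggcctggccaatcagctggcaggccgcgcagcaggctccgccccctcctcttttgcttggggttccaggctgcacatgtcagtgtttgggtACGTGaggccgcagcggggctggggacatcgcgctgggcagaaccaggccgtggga

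The deposited data held 22717 cells in 46 annotated cell types, with 936 to 2033 cells and 9616512 to 21335421 unique molecular identifiers (UMIs, each standing for 1 captured transcript) per mouse. Values below are normalized UMIs per cell, averaged over the cells of 1 class or cell type in each mouse, with each mouse as 1 replicate. The classes held 192 to 1170 epithelial, 166 to 557 fibroblast, 26 to 113 endothelial and 49 to 395 myeloid cells per mouse, and uninjured mice had the fewest myeloid cells, 49 to 76. Defining epithelial, fibroblast, endothelial and myeloid markers were concentrated in the classes so named. The median mitochondrial share of UMIs per library lay at or below 11.6% in 10 of the 12 DSS mice, with SZN-1326-p mouse 2 of 24 h at 18.9% and mouse 3 of 48 h at 24.1%, against 19.2% to 26.1% in uninjured mice. These medians span all cell classes of a library. Within epithelial cells they overlapped, at 26.1% to 36.7% in anti-GFP, 30.2% to 36.0% in SZN-1326-p and 31.3% to 34.1% in uninjured mice. The SZN-1326-p mice just named had 33.6% and 36.0% there. Fibroblasts of all groups lay at 4.55% to 5.84%. Myeloid cells had 3.56% to 4.37% in anti-GFP and 6.11% to 6.42% in uninjured mice. Anti-GFP mouse 1 at 48 h stood apart: 8 myeloid markers summed to 36.3 normalized UMIs in its epithelial cells, against 0.327 to 2.07 in the other anti-GFP mice and 0.0699 to 0.0870 in uninjured mice. Leaving out the 18 of its 235 epithelial cells that held at least 10 such UMIs, and the like cells of other mice, changed no count of members called in the 5 epithelial results, an alternative chosen after seeing the data. In all, 64 barcode sequences occurred in more than 1 library, which touched 129 cells.

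Across cell types, 12 of the 14 core glycolysis genes were at their highest in a type of the enterocyte line (Enterocyte, AltEnterocyte, ImmEntero1 or ImmEntero2), while Hif1a peaked in InjuryMono1, Epas1 in VascEndo and Egln3 in ActNeutrophil. For some of the 12 a myeloid type came close, within the spread over mice: Eno1 was at 4.25 ± 1.05 in Enterocyte and 3.78 ± 0.615 in InjuryMono1, and Pgk1 at 4.28 ± 1.08 in AltEnterocyte and 3.85 ± 0.614 in ActNeutrophil. These levels are a description, with no test, and each gene is compared across cell types and not with other genes. Normalized totals per cell were unequal between classes, which bears on these ranks. Epithelial cells averaged 13996 to 15345 in uninjured mice and 11102 to 12840 in DSS mice. Myeloid cells averaged 10048 to 12529, and endothelial cells and fibroblasts 7920 to 8798. Levels of Enterocyte, ImmEntero1 and ImmEntero2 come from the 4 uninjured mice alone. Of the 32 genes, 12 were highest in the type annotated Enterocyte, 4 in ActNeutrophil and 3 in AltEnterocyte, and the other 13 were spread over 9 types. Hif1a, the oxygen-regulated subunit of HIF-1, reached 7.56 ± 1.66 normalized UMIs per cell (SD, n = 10 mice) in InjuryMono1, 5.24 ± 1.21 (n = 12) in InjuryMono2 and 4.52 ± 1.25 (n = 12) in ActNeutrophil, and was at 0.24 in StemCell. AltEnterocyte followed at 3.67 ± 1.21. Mice of InjuryMono1 ranged over 5.17 to 10.1 and those of InjuryMono2 over 3.45 to 7.04, so these overlapped, as did InjuryMono2 with ActNeutrophil and ActNeutrophil with AltEnterocyte. Epas1, the subunit of HIF-2, reached 7.36 ± 1.55 (n = 16) in VascEndo, well above the next type, InjuryCryptFB1, at 1.61 ± 0.431. Egln1, the main HIF prolyl hydroxylase, was nearly even, at 0.338 to 0.876 across the types with at least 2 mice. Egln3, an inducible hydroxylase, was at 0.989 ± 0.562 in ActNeutrophil and 0.829 ± 0.345 in AltEnterocyte, which did not differ beyond their spread.

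Among the enzymes, Gapdh, which oxidizes glyceraldehyde 3-phosphate, was at 26.4 ± 4.29 (n = 4) in Enterocyte, 21.5 ± 6.05 (n = 10) in AltEnterocyte and 1.89 in EnteroEnd1. Ldha was at 20.3 ± 2.5 in Enterocyte, 15.4 ± 2.82 in AltEnterocyte and 1.06 in EnteroEnd1. Pkm, the pyruvate kinase gene, was at 15.4 ± 1.95 in Enterocyte and 15.0 ± 1.52 in ActNeutrophil, which overlapped. Hk2, the inducible hexokinase, was at 9.4 ± 2.57 in AltEnterocyte and 7.84 ± 1.35 in Enterocyte, also overlapping. Pfkfb3, which makes the activator of phosphofructokinase, was at 1.42 ± 0.685 in ActNeutrophil, and Macrophage had 0.565 ± 0.189. Gapdh, Ldha, Eno1 and several other glycolysis genes have near-identical copies in the mouse genome, and how reads shared with them were counted is not given in the sources used here, so their levels are uncertain. Among the targets, P4ha1 was highest in fibroblast types, at 1.65 ± 0.368 (n = 16) in BaseCryptFB2, with 1.00 ± 0.330 (n = 10) in InjuryMono1 and 0.0363 in TA1. Vegfa, the angiogenic growth factor, was at 2.21 ± 0.253 in Enterocyte and 1.97 ± 0.914 in InjuryMono1, which overlapped, and Ndrg1, a stress-responsive differentiation gene, was at 5.44 ± 0.622 (n = 6) in LymphEndo and 4.56 ± 1.2 in Enterocyte. Higd1a was at 18.6 ± 4.66 in Enterocyte and 16.5 ± 3.72 in ImmEntero2, which overlapped, against 0.533 in Macrophage.

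**Figure D1:**
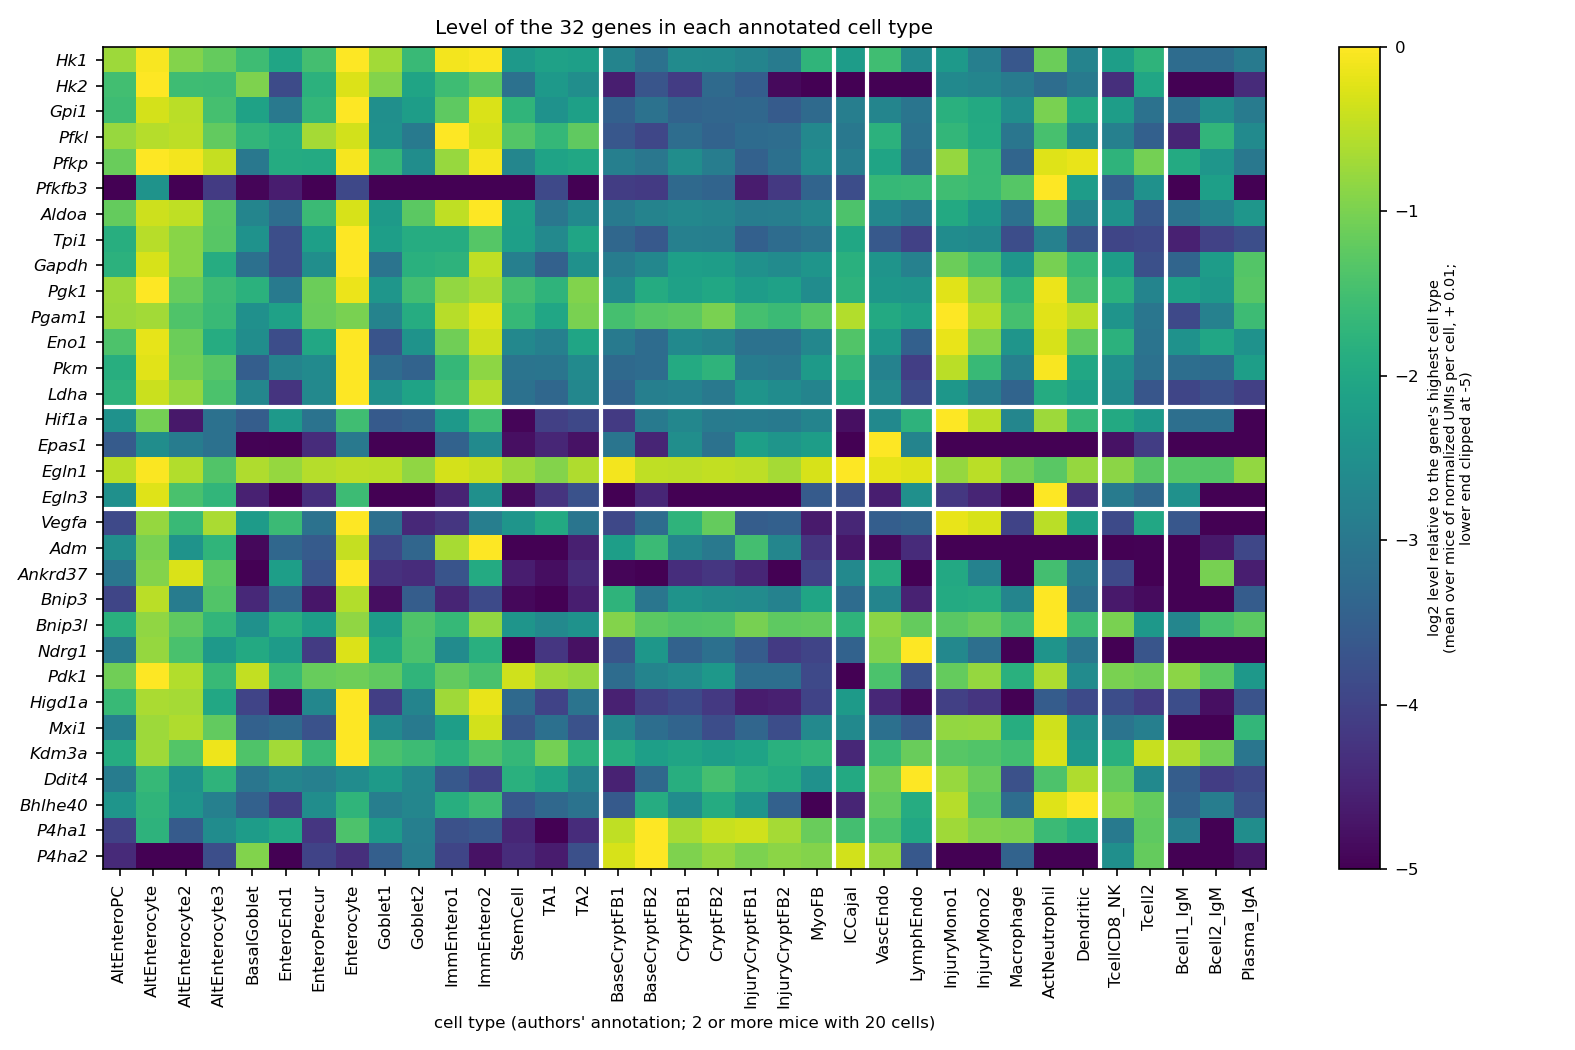
Each column is an annotated cell type and each row 1 of the 32 genes, coloured by the mean normalized UMIs per cell over mice as a share of that gene's highest cell type. Of the core glycolysis genes 12 of 14 peak in types of the enterocyte line, Hif1a peaks in InjuryMono1 (7.56) and Epas1 in VascEndo (7.36).

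In the epithelium, DSS injury went with lower levels of most glycolysis genes and of several HIF targets, while Pfkfb3, Pdk1 and Ddit4 were higher. The lower calls rest on the authors' size factors in the test used here: with non-mitochondrial scaling or with limma's voom no core glycolysis gene fell, and Adm and Mxi1 were the members called lower. Of the 32 genes, 3 rose and 12 fell in anti-GFP mice relative to uninjured mice, by limma with Benjamini-Hochberg adjustment over 10795 genes (adjusted p under 0.05). Over all genes tested, 10.8% rose and 12.5% fell. The median log2 change was -0.32 over the members and 0.00 over all genes. Of the core glycolysis genes, 1 rose and 8 fell of 14 (median -0.52), of the HIF axis none of 4 passed (median -0.15), and of the HIF targets 2 rose and 4 fell of 14 (median -0.27).

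On the HIF axis, Hif1a was at 0.619, 1.15 and 1.95 normalized UMIs per cell in the lowest, median and highest anti-GFP mouse, against 1.62, 1.41, 1.59 and 1.10 in uninjured mice. The groups overlapped, and the log2 difference of -0.31 did not pass (adjusted p = 0.441 by limma). Epas1 differed by -0.10 and Egln1 by -0.19, and Egln3 by 0.79 (adjusted p = 0.0652 by limma), none past the test. With non-mitochondrial scaling and with voom, 1 of the 4 HIF axis genes was called higher, and their medians were 0.16 and 0.18.

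Along the pathway, Gapdh was at 5.40, 6.31 and 10.9 in the lowest, median and highest anti-GFP mouse, against 8.46, 14.0, 13.1 and 10.2 in uninjured mice. Its log2 change was -0.75 (SE 0.22, adjusted p = 0.0245 by limma), and the groups overlapped in anti-GFP mouse 1 at 48 h. Ldha was at 4.73, 5.68 and 7.97, against 7.38, 11.1, 9.23 and 8.04 in uninjured mice, a log2 change of -0.61 (SE 0.19, adjusted p = 0.0281 by limma). The same anti-GFP mouse was the highest of its group and reached into the uninjured range. Pkm fell by 0.61 on the log2 scale, at 4.11 ± 0.795 in anti-GFP mice (SD, n = 6) and 6.27 ± 1.13 in uninjured mice (SD, n = 4). Aldoa, the aldolase that cleaves fructose 1,6-bisphosphate, and Tpi1, triose-phosphate isomerase, each changed by -0.60, Pgam1, phosphoglycerate mutase, by -0.52 and Gpi1, glucose-6-phosphate isomerase, by -0.51. Pfkl, the liver-type phosphofructokinase, changed by -0.45 with no overlap between the groups. Pgk1, phosphoglycerate kinase, differed by -0.34 (adjusted p = 0.143 by limma), with 1.40, 1.80 and 2.18 in the lowest, median and highest anti-GFP mouse and 1.87, 2.73, 2.48 and 2.03 in uninjured mice. Against this direction Pfkfb3 rose in 5 of 6 anti-GFP mice, to 0.0284, 0.0884 and 0.146 at the lowest, median and highest, against 0.0308, 0.0342, 0.0220 and 0.0392 in uninjured mice. Its log2 change was 1.06 (SE 0.29, adjusted p = 0.0143 by limma), and all 3 mice at 48 h lay above every uninjured mouse. Every uninjured mouse lay below the level set by the filter on low values. Pfkfb3 was therefore tested only because mice of other groups reached that level, a selection that favours a rise.

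Adm, which encodes the vasodilator peptide adrenomedullin, fell most among the targets: it was at 0.131, 0.203 and 0.252 in the lowest, median and highest anti-GFP mouse, against 0.426, 0.654, 0.646 and 0.478 in uninjured mice. The log2 change was -1.45 (SE 0.21, adjusted p = 0.000127 by limma), and no mouse overlapped. Ankrd37, at 0.0747, 0.167 and 0.184 against 0.361, 0.442, 0.249 and 0.275 in uninjured mice, changed by -1.07 (SE 0.24, adjusted p = 0.00422 by limma), also without overlap. Mxi1, a MYC antagonist of the MAD family, changed by -0.96, and Higd1a by -0.83, at 5.06 ± 1.24 in anti-GFP mice (SD, n = 6) and 9.18 ± 2.98 in uninjured mice (SD, n = 4). Pdk1, the kinase that holds pyruvate back from the mitochondria, rose by 0.48 and Ddit4, an inhibitor of mTORC1, by 0.41 on the log2 scale. Vegfa differed by -0.22, Ndrg1 by -0.22, P4ha1 by -0.22 and Bnip3, a mitophagy receptor, by -0.69 (adjusted p = 0.119 by limma), with none past the test. Adm, Ankrd37 and Mxi1 passed whichever mouse was left out.

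**Figure D2:**
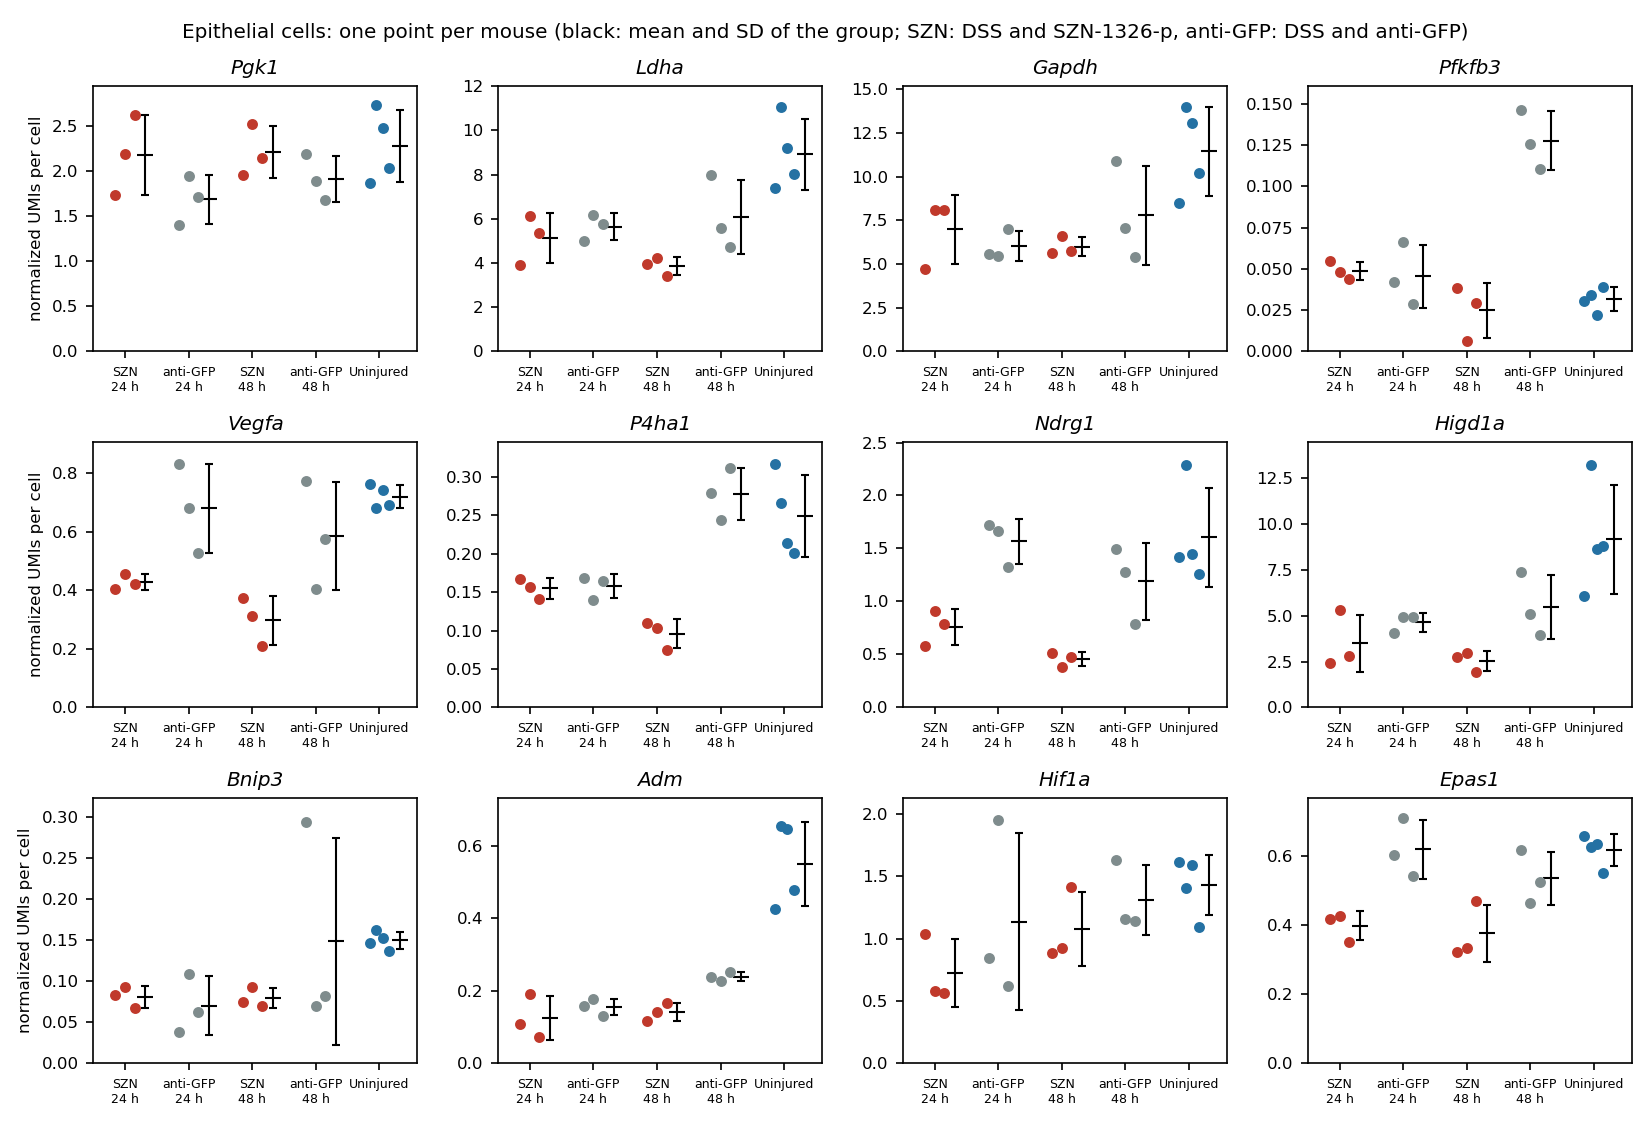
Each panel is 1 gene, with 1 point per mouse for the mean normalized UMIs per epithelial cell and a bar for the group mean with its SD (3 mice per DSS group and time, 4 uninjured). The anti-GFP mice lie below the uninjured mice for Adm (0.131 to 0.252 against 0.426 to 0.654), and the SZN-1326-p mice at 48 h lie below the anti-GFP mice at 48 h for P4ha1, Ndrg1, Pfkfb3, Vegfa and Higd1a.

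In related lists of the epithelium 9 genes rose and 30 fell of 95 tested, with the authors' size factors. With non-mitochondrial scaling 15 rose and 21 fell of 91, and with voom 19 rose and 18 fell, alternatives chosen after seeing the data. Among other glycolytic isozymes, 1 rose and 3 fell of 9 (median -0.56), among them Pfkfb4 at -1.05, Ldhb at -1.02 and Bpgm at 0.55. Of glucose and lactate transporters 1 rose and 1 fell of 8 (median -0.26), namely Slc5a1 at 0.36 and Slc16a1 at -0.58. For pyruvate entry to mitochondria 7 fell of 11 (median -0.45), led by Pdk4 at -1.19, Pdp2 at -1.06, Pdk2 at -1.05 and Mpc1 at -0.70. Of the TCA cycle 6 fell of 18 (median -0.38), with Cs at -0.95 and Sdhb at -0.74. Gluconeogenesis had 2 fallen of 4 (median -0.44), Pck1 at -0.87 and Pcx at -0.52, and pentose phosphate had 1 of 7 (median 0.05), Pgls at -0.59. The list of other HIF pathway genes also holds Arntl, a clock gene distinct from Arnt. Of its 5 genes tested, Arntl at -0.77 and Vhl at -0.57 fell (median -0.19). Other HIF targets went against this, with 7 risen and 2 fallen of 21 (median 0.31), including Nos2 at 4.29, Stc2 at 1.14, Hmox1 at 0.96 and Selenbp1 at -1.96. Immediate early genes, which cell dissociation can raise, had 6 fallen of 12 (median -0.61). Colonocyte markers summed to 44.3 to 100 in anti-GFP mice and 131 to 211 in uninjured mice, and 4 of 5 were lower. Myeloid markers, at 0.327 to 36.3 in epithelial cells of anti-GFP mice and 0.0699 to 0.0870 in those of uninjured mice, had 3 of 6 tested called higher, and 1 of 2 tuft and 1 of 3 enteroendocrine markers were also higher. The part of these markers in the changes above was not tested.

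The count of 15 depends on scaling. With cells scaled to their non-mitochondrial UMIs the median of all genes moved to 0.21, all-gene calls were 2478 higher and 608 lower in place of 1162 and 1348, and of the members 4 rose and 2, Adm and Mxi1, fell. With limma's voom on recovered UMIs the all-gene calls were 3195 higher and 579 lower, and again 4 members rose and 2 fell. Leaving out 1 mouse gave 4 calls without uninjured mouse 1 at 48 h, 5 without uninjured mouse 2 at 24 h, 6 without uninjured mouse 2 at 48 h, 7 without anti-GFP mouse 2 at 48 h, 8 without anti-GFP mouse 1 at 24 h or mouse 3 at 48 h, and 17 without anti-GFP mouse 1 at 48 h.

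**Figure D3:**
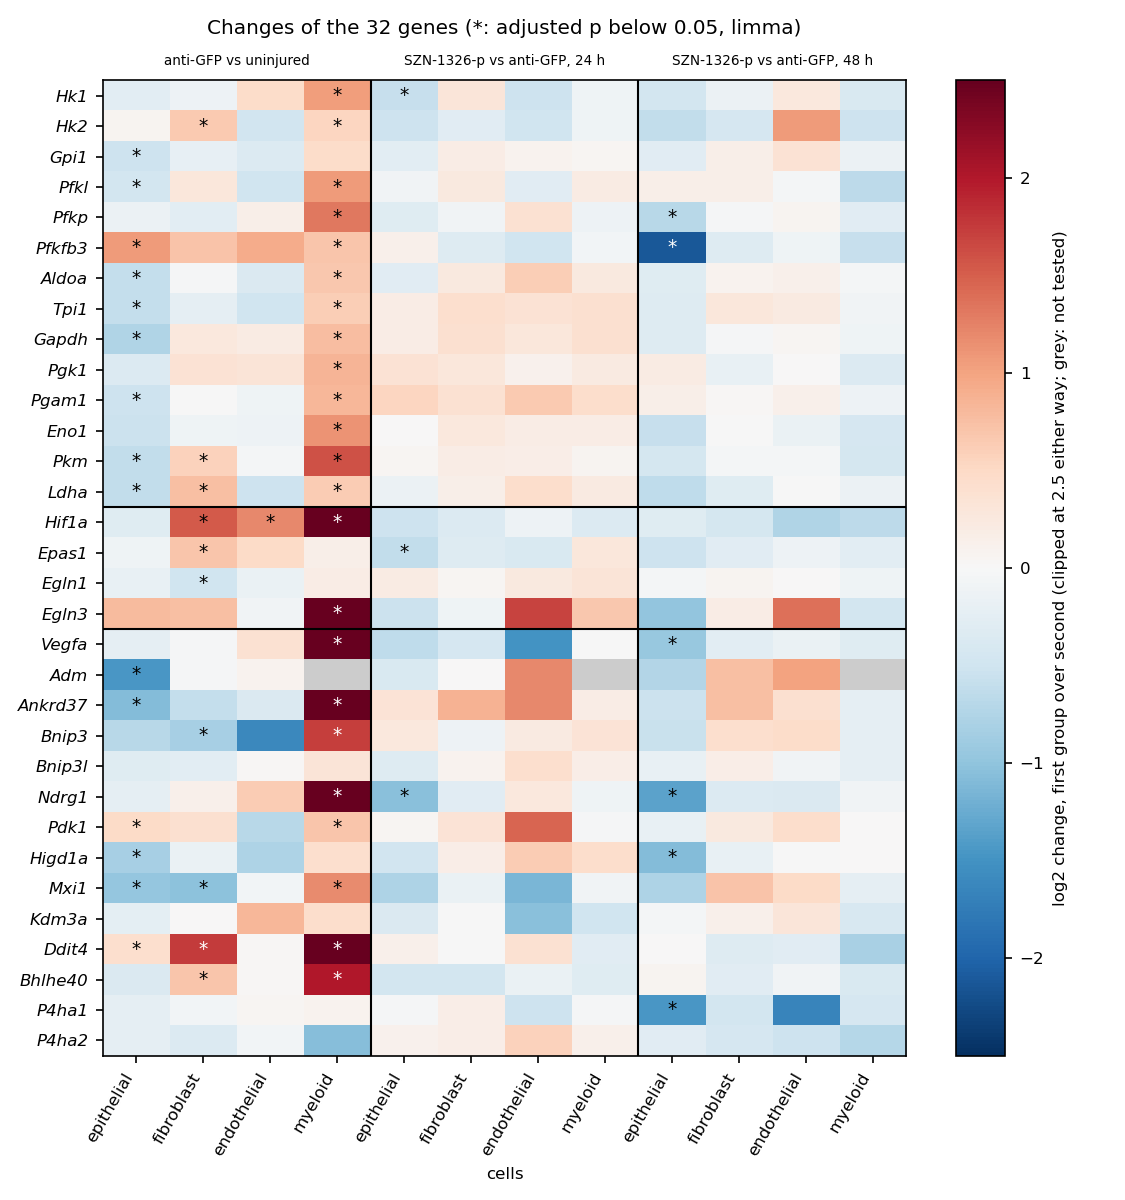
Rows are the 32 genes and columns the contrasts in each class, coloured by log2 change, with a star where the limma adjusted p is under 0.05. Myeloid cells under DSS are higher in 23 of 31 genes tested, beside 18.6% of all genes. The epithelium under DSS is lower in 12 of 32, beside 12.5% of all genes, of which only Adm and Mxi1 stay lower with non-mitochondrial scaling or voom. SZN-1326-p gives 3 stars at 24 h and 6 at 48 h, all lower and in the epithelium, beside 4.25% and 10.1% of all genes lower there.

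The epithelium of anti-GFP mice was made of other cell types than that of uninjured mice. Enterocyte made up 0.124% of epithelial cells in anti-GFP mice and 19.6% in uninjured mice, ImmEntero2 0.219% and 17.4%, and ImmEntero1 0.0807% and 9.22%. AltEnterocyte made up 11.7% and 0%, AltEnteroPC 19.5% and 2.68%, and TA1 11.1% and 2.71%. When each cell type's level was held at its mean over all mice and the shares alone were let vary, the log2 difference came to -1.48 for Adm, -0.93 for Higd1a, -0.60 for Ldha, -0.62 for Gapdh, 0.76 for Pfkfb3 and -0.58 for Ankrd37. The measured ones were -1.45, -0.83, -0.61, -0.75, 1.06 and -1.07, in the same order. Levels of Enterocyte, ImmEntero1 and ImmEntero2 came from uninjured mice alone, and those of AltEnterocyte from DSS mice alone. For these types a difference in level between the groups cannot be told apart from a difference in share. Shares and levels both come from the authors' annotation, which was built on the same counts.

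Within 1 cell type the members went the other way. AltEnteroPC had 37 to 89 cells in each of the 6 anti-GFP mice, against 56, 20 and 22 cells in 3 uninjured mice. The other uninjured mouse had fewer than 20 and was left out. In it 11 of 32 members rose and 1 fell, beside 18.7% of 10524 genes called in either direction. The median log2 change was 0.80 over the members and 0.16 over all genes. Ndrg1 was at 0.675, 0.998 and 1.51 in the lowest, median and highest anti-GFP mouse, against 0.250, 0.242 and 0.254 in uninjured mice, a log2 change of 2.01 (adjusted p = 6.39e-05 by limma) with no overlap, from 762 and 30 UMIs. Pfkp, the platelet-type phosphofructokinase, was at 1.47, 1.70 and 1.84, against 0.696, 0.577 and 0.725 in uninjured mice, a log2 change of 1.29 (adjusted p = 0.000139 by limma), again with no overlap. Hk2 rose by 1.40 on the log2 scale (adjusted p = 0.000967 by limma), though 1 uninjured mouse, at 3.34, lay within the anti-GFP range of 3.29 to 5.20.

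On the HIF axis, Hif1a, Egln3 and Epas1 were called higher in the same cells and Egln1 lower, from few UMIs in uninjured mice. Hif1a changed by 2.47 (adjusted p = 0.036 by limma), at 0.699 to 2.22 in anti-GFP mice and 0.0663 to 1.32 in uninjured mice, so the groups overlapped. Anti-GFP mice held 1244 Hif1a UMIs, and the uninjured mice 35, 2 and 7. Egln3 changed by 1.63 with no overlap (154 and 7 UMIs), and Epas1 by 0.87 (508 and 33 UMIs). Egln1 was the member that fell, by 0.75 on the log2 scale, at 0.368 to 0.598 in anti-GFP mice and 0.680 to 0.998 in uninjured mice. Ankrd37 changed by 1.90 (83 and 6 UMIs), Mxi1 by 1.57 (245 and 19 UMIs), Pdk1 by 1.40 (146 and 9 UMIs) and Kdm3a, a HIF-induced histone demethylase, by 1.16 (171 and 12 UMIs). Pfkfb3 had 22 UMIs in anti-GFP mice and was listed at 0 in all uninjured mice. Ldha differed by 0.57 (adjusted p = 0.0898 by limma) and Vegfa by -0.83 (adjusted p = 0.136 by limma). With voom on recovered UMIs the members past the test were 2, Hk2 at 1.59 and Pfkp at 1.20. With the single 48 h uninjured mouse assumed to vary like the others, leaving out each other mouse gave 9 to 14 calls.

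**Figure D4:**
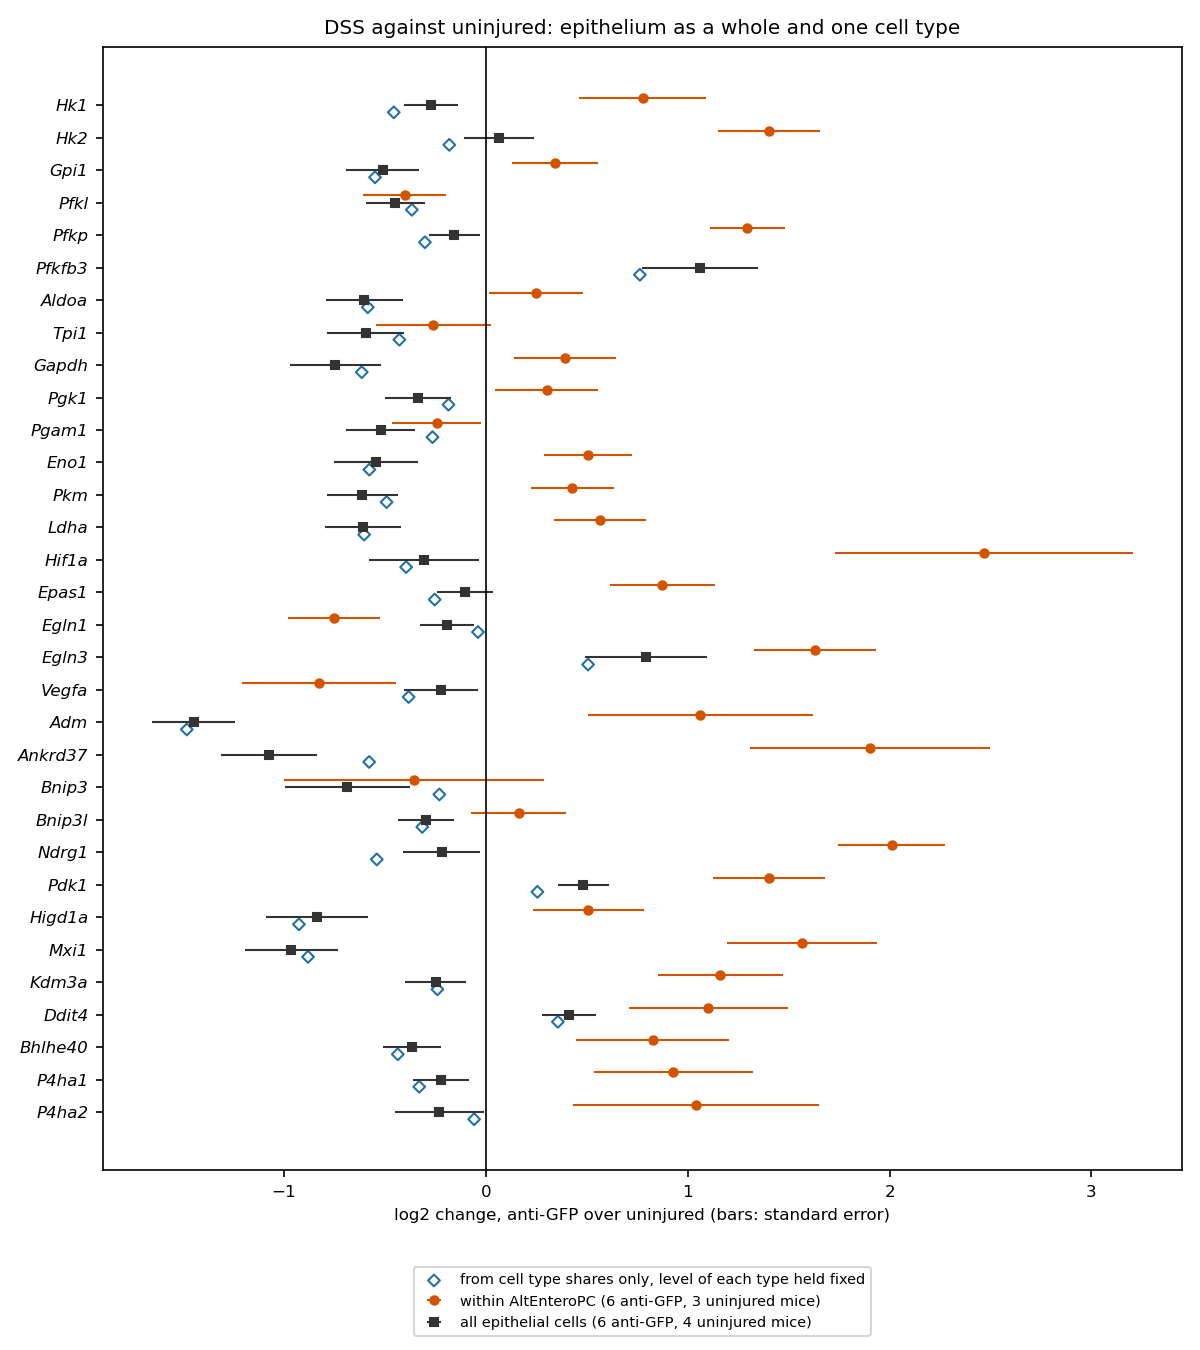
For each gene the horizontal position is the log2 change of anti-GFP over uninjured mice, in black for the whole epithelium, in orange within AltEnteroPC and as blue diamonds for the change that shares of cell types alone would give. Ndrg1 is at 2.01 within AltEnteroPC and -0.22 in the whole epithelium, and Pfkfb3 has no AltEnteroPC point because uninjured mice held 0 UMIs of it.

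Other epithelial types showed little by the same test. In TA2, where 4.78% of genes were called, Hk2 was the one member called, at 1.99 to 2.59 in 4 anti-GFP mice and 0.897 to 1.25 in 4 uninjured mice (log2 change 1.19, adjusted p = 0.0101 by limma), with no overlap. In StemCell, with 1.93% of genes called, and BasalGoblet, with 0.35%, limma called 0 members.

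In fibroblasts, DSS injury went with higher Hif1a, Ddit4, Epas1 and Ldha. Of 32 members 7 rose and 3 fell in anti-GFP mice, beside 12.4% of 11112 genes that rose and 10.1% that fell. The members' median change was -0.02 and that of all genes 0.01. Hif1a was at 0.887, 1.28 and 1.76 in the lowest, median and highest anti-GFP mouse, against 0.480, 0.439, 0.368 and 0.431 in uninjured mice. The log2 change was 1.53 (SE 0.18, adjusted p = 5.04e-06 by limma), and every anti-GFP mouse was above every uninjured mouse. Epas1 was at 1.05, 1.39 and 1.65, against 0.863, 0.749, 0.985 and 0.774 in uninjured mice, a log2 change of 0.69 without overlap. Egln1 fell by 0.51 on the log2 scale, also without overlap.

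Ldha was at 2.86, 3.22 and 4.03 in the lowest, median and highest anti-GFP mouse, against 1.70, 2.07, 1.96 and 2.03 in uninjured mice, a log2 change of 0.75 (adjusted p = 0.00165 by limma). Pkm changed by 0.57 and Hk2 by 0.66, and Hk2 overlapped between the groups. Among the targets, Ddit4 was at 0.210, 0.334 and 0.478, against 0.0774, 0.0746, 0.106 and 0.133 in uninjured mice, a log2 change of 1.74 (adjusted p = 1.19e-05 by limma) without overlap. Bhlhe40, a transcriptional repressor of the clock and hypoxia responses, changed by 0.69 with overlap. Mxi1 changed by -1.02 and Bnip3 by -0.82. BaseCryptFB1 made up 0% of fibroblasts in anti-GFP mice and 52.8% in uninjured mice, and InjuryCryptFB2 26.7% and 2.17%. With shares alone let vary, the log2 difference was 0.52 for Hif1a, 1.02 for Ddit4, 0.39 for Ldha and 0.34 for Epas1. As anti-GFP mice held no BaseCryptFB1, a difference in its level between the groups cannot be told apart from one in share. Hk2 lost its call in 5 of the 16 analyses that left out 1 mouse, and without uninjured mouse 1 at 48 h 7 members were called in all.

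Hif1a rose in each of 3 fibroblast types present in both groups, and Ldha in 2 of them. In BaseCryptFB2, with 7.56% of genes called, 6 members rose and 1 fell: Epas1 at 3.15, Adm at 2.98, Hif1a at 1.94, Pfkl at 1.75, Ldha at 1.16, Pgk1 at 0.85 and Mxi1 at -1.65. Hif1a there was at 0.987 to 2.03 in anti-GFP mice and 0.186 to 0.655 in uninjured mice, and Ldha at 2.74 to 4.27 and 1.19 to 2.02, with no overlap for either. In CryptFB1, with 15.0% called, 6 rose and 2 fell: Pfkfb3 at 2.13, Hif1a at 1.77, Ddit4 at 1.76, Bhlhe40 at 1.48, Hk2 at 0.91, Ldha at 0.63, Ankrd37 at -1.64 and Mxi1 at -1.26. Some of these calls rest on few UMIs. Over all fibroblast types the uninjured mice held 4, 27, 20 and 38 Pfkfb3 UMIs, 5, 15, 7 and 13 of Ankrd37, and 27, 49, 81 and 76 of Adm. Leaving out 1 mouse gave 5 to 7 calls in BaseCryptFB2 and 4 to 12 in CryptFB1. In MyoFB, with 7.73% called, Ddit4 at 1.88 and Hif1a at 1.53 rose, and Ldha differed by 0.13 (adjusted p = 0.754 by limma).

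Beside the members in fibroblasts, 2 of 9 transporters rose (median -0.14), Slc16a1 at 1.32 and Slc2a1 at 0.87, and G6pdx at 0.80 rose of 7 pentose phosphate genes (median -0.07). Of gluconeogenesis genes 2 fell of 3 (median -1.27), Pck1 at -2.25 and Fbp2 at -1.27. Other HIF targets had 5 risen and 5 fallen of 20 (median -0.04), with Angptl4 at 3.22, Hmox1 at 1.49, Selenbp1 at -2.13 and Stc2 at -0.94. The 7 isozymes tested had a median of 0.05. Idh3a at -0.54 fell among 18 TCA genes (median -0.13), and Pdk3 at 0.88 rose and Mpc2 at -0.47 fell among 10 pyruvate entry genes (median -0.03). Arnt at 0.58 rose and the clock gene Arntl at -0.74 fell among 5 genes of the HIF pathway list (median 0.28). Immediate early genes had 1 risen and 3 fallen of 12 (median -0.16). Epithelial markers summed to 0.637 to 2.44 in fibroblasts of anti-GFP mice and 3.52 to 7.82 in those of uninjured mice, with 6 of 6 lower, and myeloid markers to 0.238 to 0.621 and 0.083 to 0.239, whose part in these changes was not tested.

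The DSS change differed between epithelium and fibroblasts of the same mice for 13 members, all lower in the epithelium, beside 16.5% of 9348 genes called in either direction. The difference in log2 change was -1.83 for Hif1a (SE 0.23, adjusted p = 0.000225 by limma), -1.36 for Ldha (SE 0.16, adjusted p = 0.000154 by limma) and -1.19 for Pkm (SE 0.15, adjusted p = 0.000206 by limma). Adm at -1.42, Ddit4 at -1.33, Bhlhe40 at -1.05, Gapdh at -1.01, Epas1 at -0.79, Pfkl at -0.73, Pgk1 at -0.69, Aldoa at -0.57, Pgam1 at -0.50 and Eno1, the enolase gene, at -0.45 followed. With voom 11 were called, and leaving out each mouse gave 10 to 15. Normalized totals per epithelial cell were lower in anti-GFP mice (11641 to 12840) than in uninjured mice (13996 to 15345). In fibroblasts they overlapped, at 8275 to 8566 and 8310 to 8798. The part of these totals in the differences was not tested.

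In endothelial cells Hif1a was the one member of 32 to pass, beside 2.19% of 11572 genes that rose and 1.07% that fell. It was at 1.11, 1.81 and 2.83 in the lowest, median and highest anti-GFP mouse, against 1.38, 0.902, 0.396 and 0.669 in uninjured mice, and the groups overlapped. The log2 change was 1.21 (SE 0.27, adjusted p = 0.00777 by limma). The call was lost in 2 of the analyses that left out 1 mouse, with adjusted p up to 0.0837. In VascEndo alone, with 1.56% of genes called, limma called 0 members. Of the other lists, Taldo1 at -0.70, Selenbp1 at -4.03 and Angptl4 at 2.48 passed.

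Myeloid cells of anti-GFP mice had higher levels of nearly the whole pathway. Of 31 members tested (Adm was too low), 23 rose and none fell in anti-GFP mice. Over all 10981 genes tested, 18.6% rose and 12.6% fell. Of the 23, Egln3 was tested only because DSS mice reached the filter on low values, and Ankrd37 possibly so. The members' median change was 0.84 and that of all genes 0.01, and 30 of 31 differences were positive. Core glycolysis genes had 13 risen of 14 (median 0.81), Gpi1 being the one not called, the HIF axis 2 of 4 (median 1.35) and HIF targets 8 of 13 (median 1.17).

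Hif1a was at 4.32, 5.58 and 5.84 in the lowest, median and highest anti-GFP mouse, against 0.999, 0.588, 1.22 and 0.933 in uninjured mice. The log2 change was 2.52 (SE 0.18, adjusted p = 9.16e-10 by limma), from 7362 and 155 UMIs, with a wide gap between the groups. Egln3 was at 0.115, 0.188 and 0.263 in anti-GFP mice, while 1 uninjured mouse had 0.0506 and the other 3 had 0. Egln3 was therefore tested only because DSS mice reached the filter on low values, a selection that favours a rise. As uninjured myeloid cells held 2 Egln3 UMIs of 2062022 and anti-GFP cells 108 of 16250387, the ratio of the shares was 6.85, with a 95% counting interval of 1.85 to 57.3.

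Pkm was at 5.73, 7.02 and 9.65 in the lowest, median and highest anti-GFP mouse, against 2.58, 2.77, 2.35 and 2.19 in uninjured mice, a log2 change of 1.59 (adjusted p = 8.88e-08 by limma) with no overlap. Pfkp changed by 1.32 and Eno1 by 1.12. Pgk1 was at 2.67 ± 0.418 in anti-GFP mice (SD, n = 6) and 1.49 ± 0.302 in uninjured mice (SD, n = 4), a log2 change of 0.84.

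Vegfa was at 0.921, 1.43 and 1.88 in the lowest, median and highest anti-GFP mouse, against 0.173, 0.129, 0.0566 and 0.118 in uninjured mice. Its log2 change was 3.54 (adjusted p = 3.96e-10 by limma), from 2107 and 23 UMIs. Ndrg1 was at 0.455, 0.685 and 0.925, against 0.0248, 0.0720, 0.0618 and 0.0545 in uninjured mice, a log2 change of 3.49 (adjusted p = 2.71e-09 by limma), from 959 and 13 UMIs. Neither gene overlapped between the groups. Ankrd37 at 3.24 (259 and 4 UMIs), Ddit4 at 2.88 (1036 and 16 UMIs), Bhlhe40 at 2.00, Bnip3 at 1.74 (300 and 14 UMIs) and Mxi1 at 1.17 (1414 and 84 UMIs) followed. The uninjured mice held 0, 0, 2 and 2 Ankrd37 UMIs, so DSS mice may have carried it past the filter on low values, which favours a rise. The other 10 members called changed by 0.53 (Hk2) to 1.06 (Pfkl, from 881 and 53 UMIs), among them Hk1 from 416 and 30 UMIs and Pdk1 from 230 and 17 UMIs. The groups overlapped for Tpi1, Hk1, Hk2 and Bnip3 among those called.

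The myeloid class also changed in makeup. Macrophage made up 11.9% of myeloid cells in anti-GFP mice and 75.1% in uninjured mice, InjuryMono1 23.5% and 0.49%, InjuryMono2 33.8% and 11.1%, and ActNeutrophil 17.0% and 1.02%. With shares alone let vary the log2 difference was 1.38 for Hif1a, 1.87 for Vegfa, 1.65 for Ndrg1, 1.39 for Pkm, 0.84 for Pgk1 and 0.06 for Hk2. No uninjured mouse had 20 cells of InjuryMono1, InjuryMono2 or ActNeutrophil. For these types a difference in level between the groups cannot be told apart from one in share. In Macrophage, the type with at least 20 cells in every mouse of both groups, limma called 0 members beside 2.41% of all genes, and the members' median difference was -0.05.

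**Figure D5:**
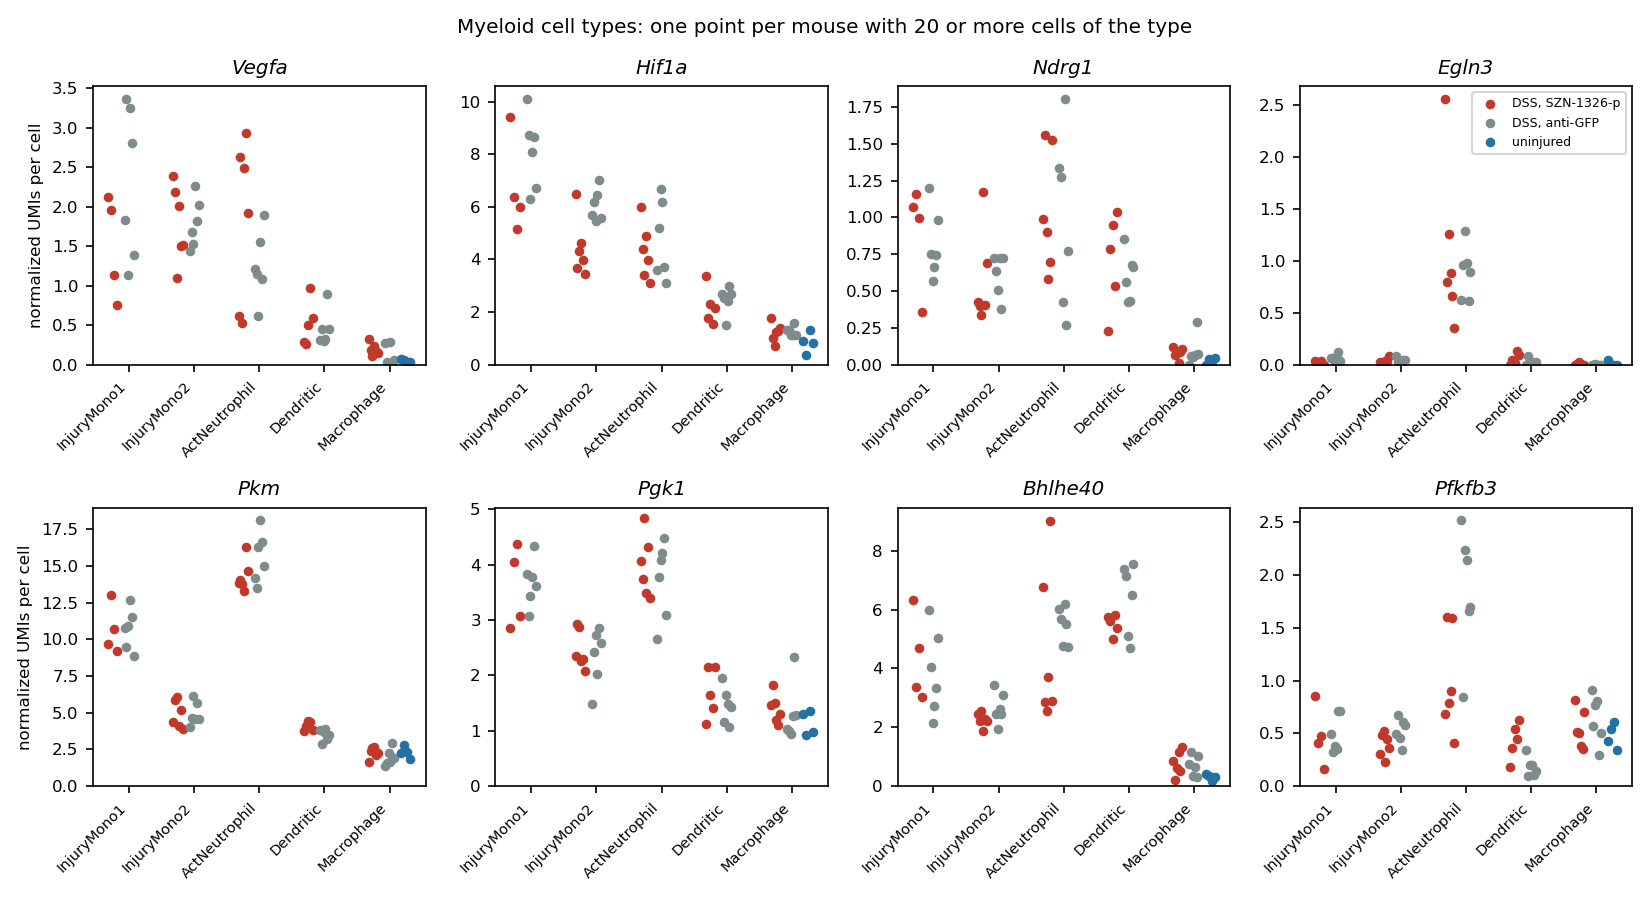
For 8 members, points give the mean normalized UMIs per cell of each mouse with at least 20 cells in 5 myeloid types. Hif1a is highest in InjuryMono1 (7.56 on average), Pfkfb3 in ActNeutrophil (1.42), and Macrophage lies low for Vegfa, Hif1a and Ndrg1.

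Transport genes rose with them in myeloid cells, 5 up and 2 down of 9 (median 1.46): the lactate exporter Slc16a3 at 4.75, the glucose transporters Slc2a3 at 4.32 and Slc2a1 at 2.54, and Emb at 1.87. Pentose phosphate genes had 3 risen of 7 (median 0.17), Pgd at 1.26, Taldo1 at 0.91 and G6pdx at 0.79. The TCA cycle had 2 risen and 4 fallen of 18 (median -0.19), with Idh2 at -1.09, Mdh1 at -0.75, Mdh2 at 0.69 and Cs at 0.66. Hk3 at 1.30 rose among 9 isozymes (median 0.29), Pck2 at -1.39 fell among 3 gluconeogenesis genes (median -1.13), Pdk3 at 0.95 rose among 10 pyruvate entry genes (median 0.05), and Hif1an at 1.28 and Arnt at 0.92 rose among 5 HIF pathway genes (median 0.24). Other HIF targets had 5 risen and 3 fallen of 21 (median 0.03), with Adora2b at 4.56, Nt5e at 2.22, Ero1l at 1.29 and Selenbp1 at -1.89. Immediate early genes had 4 risen and 5 fallen of 12 (median 0.19). Epithelial markers summed to 2.47 to 5.30 in myeloid cells of anti-GFP mice and 3.86 to 10.3 in those of uninjured mice, and their part was not tested.

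At 24 h after SZN-1326-p, 3 members were lower in the epithelium and none higher: Ndrg1, Epas1 and Hk1. Over all 10795 genes 5.89% rose and 4.25% fell. Ndrg1 was at 0.577, 0.907 and 0.789 in SZN-1326-p mice, against 1.72, 1.66 and 1.32 in anti-GFP mice at 24 h. The log2 change was -1.05 (SE 0.24, adjusted p = 0.0132 by limma). Epas1 was at 0.418, 0.426 and 0.350 in SZN-1326-p mice, against 0.601, 0.709 and 0.542 in anti-GFP mice, a log2 change of -0.62 (SE 0.18, adjusted p = 0.0344 by limma). Hk1, the constitutive hexokinase, was at 0.730, 0.572 and 0.568, against 0.886, 1.16 and 0.787 in anti-GFP mice, a log2 change of -0.58 (SE 0.17, adjusted p = 0.0389 by limma). None of the 3 overlapped between the groups. Vegfa, at 0.404, 0.457 and 0.420 against 0.832, 0.680 and 0.528 in anti-GFP mice, also did not overlap, but its difference of -0.64 did not pass (adjusted p = 0.0897 by limma).

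The median difference was -0.21 over the members and -0.06 over all genes, with -0.04 for core glycolysis, -0.53 for the HIF axis and -0.35 for the targets. Outside the members, Hkdc1 at -1.35 fell among 9 isozymes (median -0.12), Slc2a1 at -0.79 among 8 transporters (median -0.18), while Idh3a at 0.69 rose among 18 TCA genes (median 0.21) and Mif at 0.86 among 21 other HIF targets (median -0.04). The lists for gluconeogenesis (median -0.10), pyruvate entry (0.04), pentose phosphate (0.12), HIF pathway (0.06) and immediate early genes (-0.24) had none past the test by limma. Colonocyte markers summed to 23.9 to 51.8 in SZN-1326-p mice and 72.5 to 83.5 in anti-GFP mice, with 3 of 5 lower, and stem and transit-amplifying markers to 3.17 to 6.55 and 1.83 to 3.29, with 2 of 5 higher. Their part was not tested, and shares alone gave -0.46 for Ndrg1, -0.31 for Epas1 and -0.24 for Hk1. The count was 0 without anti-GFP mouse 1 or without mouse 2 at 24 h, and to 1 without SZN-1326-p mouse 2 or without mouse 3, and came to 6 without anti-GFP mouse 3. A fit to these 2 groups alone called 0 members, with 2136 genes at an unadjusted p under 0.05.

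At 48 h after SZN-1326-p, 6 members were lower in the epithelium and none higher, beside 2.41% of genes that rose and 10.1% that fell. P4ha1 was at 0.110, 0.104 and 0.0750 in SZN-1326-p mice, against 0.279, 0.244 and 0.312 in anti-GFP mice at 48 h. Its log2 change was -1.45 (SE 0.18, adjusted p = 7.61e-05 by limma), and each SZN-1326-p mouse lay below every anti-GFP mouse. Pfkfb3 was at 0.0387, 0.00627 and 0.0294, against 0.146, 0.126 and 0.111 in anti-GFP mice. The log2 change was -2.12 (SE 0.36, adjusted p = 0.00103 by limma) from 37 and 64 UMIs. These SZN-1326-p mice all lay below the level set by the filter on low values, and the anti-GFP mice above it. That selection favours a fall for Pfkfb3. Ndrg1 was at 0.512, 0.380 and 0.471, against 1.50, 1.28 and 0.790 in anti-GFP mice, a log2 change of -1.33 (SE 0.24, adjusted p = 0.00156 by limma). None of these 3 genes overlapped between the groups, and Ndrg1 was lower at both times.

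Pfkp was at 0.887, 0.837 and 0.773 in SZN-1326-p mice, against 1.66, 1.17 and 1.25 in anti-GFP mice, a log2 change of -0.69 (SE 0.16, adjusted p = 0.00937 by limma). Vegfa was at 0.375, 0.310 and 0.209, against 0.774, 0.404 and 0.576 in anti-GFP mice, a log2 change of -0.94 (SE 0.23, adjusted p = 0.014 by limma). Higd1a was at 2.72, 2.95 and 1.91, against 7.38, 5.09 and 3.96 in anti-GFP mice, a log2 change of -1.09 (SE 0.32, adjusted p = 0.0331 by limma). None of these overlapped either, with anti-GFP mouse 1 the highest of its group for all 3. Ldha differed by -0.63 (adjusted p = 0.0931 by limma), with 3.94, 4.23 and 3.41 in SZN-1326-p mice and 7.97, 5.61 and 4.73 in anti-GFP mice. Pgk1 differed by 0.20, Hif1a was at 0.883, 0.927 and 1.42 against 1.64, 1.16 and 1.14 in anti-GFP mice, and Epas1 at 0.322, 0.334 and 0.469 against 0.615, 0.463 and 0.523, none past the test. Hk2, Adm, Egln3 and Mxi1 did not overlap between the groups but missed the threshold, at -0.61, -0.73, -0.98 and -0.78.

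The members' median difference was -0.45, that of all genes -0.11, and 5 of 32 were positive. The medians were -0.38 for core glycolysis, -0.40 for the HIF axis and -0.55 for the targets. In related lists, Hkdc1 at -1.86, Pklr at -0.94 and Pfkfb4 at -0.93 fell among 9 isozymes (median -0.07), and Slc2a1 at -0.71 among 8 transporters (median -0.03). The clock gene Arntl at -0.93 fell among 5 genes of the HIF pathway list (median -0.18). Other HIF targets had 1 risen and 3 fallen of 21 (median -0.37), with Nos2 at -2.98, Nt5e at -1.85, P4hb at -0.52 and Ankrd10 at 0.53. Fh1 at 0.65 rose among 18 TCA genes (median 0.26), and gluconeogenesis (median -0.08), pyruvate entry (0.03), pentose phosphate (0.15) and immediate early genes (-0.06) had none past the test by limma.

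EnteroPrecur made up 37.7% of epithelial cells in SZN-1326-p mice at 48 h and 5.69% in anti-GFP mice, and AltEnterocyte 2.16% and 14.4%. Colonocyte markers summed to 12.8 to 16.3 in SZN-1326-p mice and 44.3 to 100 in anti-GFP mice, with 5 of 5 lower. Tuft markers summed to 0.135 to 0.363 and 0.820 to 1.78, with 2 of 2 tested lower, and 1 of 5 goblet and 1 of 3 enteroendocrine markers were lower. Tuft, the epithelial type with the highest Pfkfb3 (0.395 in the 1 mouse with enough cells), made up 0.559% and 3.64% of epithelial cells. The part of these markers in the results was not tested. Fibroblast markers in the epithelium, relevant to P4ha1, summed to 0.475 to 0.875 and 0.512 to 0.584, and 0 of 5 were called by limma. With shares alone let vary the log2 difference was -0.74 for P4ha1, -1.39 for Pfkfb3, -1.09 for Ndrg1, -0.49 for Higd1a, -0.76 for Vegfa and -0.55 for Pfkp. Within AltEnteroPC, with 0.2% of genes called, and TA2, with 0.0281%, limma called 0 members, and likewise in every other cell type with at least 2 mice on each side at either time. The members' median difference at 48 h was 0.13 in AltEnteroPC, with 21 of 32 positive, and 0.06 in TA2, with 17 of 31 positive. P4ha1, Pfkfb3 and Ndrg1 passed whichever mouse was left out. Without anti-GFP mouse 1 at 48 h, however, Pfkp (adjusted p = 0.0561 by limma), Vegfa (0.0865) and Higd1a (0.155) were not called, and with non-mitochondrial scaling, where all-gene calls were 503 higher and 721 lower in place of 260 and 1085, Vegfa and Pfkp were not.

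The antibody effect differed between the times for 1 member, P4ha1, beside 0.13% of genes with a more negative effect at 48 h. Its log2 difference at 48 h minus that at 24 h was -1.43 in the epithelium (SE 0.25, adjusted p = 0.036 by limma). At 24 h SZN-1326-p mice had 0.168, 0.156 and 0.141, against 0.168, 0.140 and 0.165 in anti-GFP mice. The anti-GFP mice at 48 h, at 0.244 to 0.312, were all above those at 24 h. The call was lost when anti-GFP mouse 1 at 48 h was left out (adjusted p = 0.121 by limma) and in 11 of the 16 analyses that left out 1 mouse in all, with adjusted p of 0.033 to 0.137. It was also lost with no filter on low values, with the compared groups alone, with non-mitochondrial scaling, with voom and without both mice of high mitochondrial share.

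In fibroblasts, endothelial cells and myeloid cells, limma called 0 members in SZN-1326-p mice against anti-GFP mice at either time. Of all genes 0.0% were called in each class at 24 h, and 0.117%, 0.0% and 0.0182% in fibroblasts, endothelial cells and myeloid cells at 48 h. At an unadjusted p under 0.05, limma gave 2 members in fibroblasts, 4 in endothelial cells and 1 in myeloid cells at 24 h, and 4, 2 and 6 at 48 h. Of all genes 6.92%, 6.32% and 4.63% were at that level in the same classes at 24 h, and 8.63%, 2.73% and 8.03% at 48 h. The myeloid members' median difference at 48 h was -0.29, that of all genes 0.06, and 2 of 31 were positive.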

How the data were processed

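Single-cell RNA-seq libraries were made with the 10x Genomics 3′ kit, version 3, from EDTA-released epithelium and digested lamina propria of each mouse, per the labels' protocols. Cell Ranger 3.0.2 and mm10 are named in the submitters' processing notes. The deposited matrix holds log2 values, which the authors made as the log2 of UMIs over a size factor plus 1. Un-logged, 100% of 60867816 entries were whole multiples of 1 step per cell (tolerance 1e-06), so UMIs were recovered. The authors' deposited annotation gave cell types and groups; its treatment name SWAP was read as SZN-1326-p, since the other names match the labels. Its filters on cells and doublets are not given in the sources used here, and no doublet caller was run. The authors' size factors do not equalise totals: epithelial cells of anti-GFP mice averaged 11641 to 12840 normalized UMIs, against 13996 to 15345 in uninjured mice.

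Per mouse and class or type with at least 20 cells, mean normalized UMIs were tested as log2(mean + 0.01), which understates changes of low genes, where at least 2 mice reached 0.05. limma 3.58.1 (R 4.3.3, trend and robust) fitted 16 mice in 6 groups with 10 residual degrees of freedom, and p was Benjamini-Hochberg adjusted over all genes at 0.05. The test was checked on simulated data, where low-count genes in myeloid cells gave false calls, so UMI counts stand beside the lower ones of those results. In each comparison up to 12 members past the test were named by size of change with mouse values for up to 6, and Pgk1, Ldha, Vegfa, Bnip3, P4ha1, Hif1a and Epas1 were given in the epithelium regardless. Of other lists up to 4 were named, and 1 gene of them is not reported here. The members and lists were chosen with earlier results of these data known. Each animal was 1 replicate, per the labels. Alternatives were a pseudocount of 0.1, no filter, the compared groups alone, a replicate block, leaving out each mouse, non-mitochondrial scaling, voom, leaving out the SZN-1326-p mice whose whole library had a high mitochondrial share, a term for 4 libraries rich in long transcripts, and at least 50 cells. Those 4 libraries were uninjured mouse 1, anti-GFP mice 1 and 2 and SZN-1326-p mouse 1, all at 24 h. Intervals cover counting error only. Python 3.11.15 (numpy 2.4.6, pandas 2.3.3, scipy 1.17.1, matplotlib 3.10.9) made tables and figures.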

Additional observations from a re-analysis of the deposited data

Results flagged for a closer look

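In groups of 4 to 6 mice, 98 sets of values were examined for 1 mouse lying far from the others, and 6 were found, where chance gives about 1 in 20, or 4.9. Anti-GFP mouse 1 at 48 h stood far above the other 5 anti-GFP mice in its epithelial cells for Pkm (5.68 normalized UMIs per cell), Gapdh (10.9) and Higd1a (7.38). Anti-GFP mouse 3 at 48 h stood below the others for epithelial Ankrd37, at 0.0747. In myeloid cells of uninjured mice, mouse 2 at 24 h stood above the others for Pgam1, at 1.74, and mouse 1 at 24 h was the one with any Egln3, at 0.0506.

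The change after SZN-1326-p differed between 48 h and 24 h for epithelial P4ha1, by -1.43 on the log2 scale (adjusted p = 0.036 by limma), a call lost without anti-GFP mouse 1 at 48 h (adjusted p = 0.121 by limma) and with no filter, the compared groups alone, non-mitochondrial scaling, voom or without both mice of high mitochondrial share. The DSS change differed between epithelium and fibroblasts, in log2 as epithelium minus fibroblast, for Hif1a (-1.83), Adm (-1.42), Ldha (-1.36), Ddit4 (-1.33), Pkm (-1.19), Bhlhe40 (-1.05), Gapdh (-1.01), Epas1 (-0.79), Pfkl (-0.73), Pgk1 (-0.69), Aldoa (-0.57), Pgam1 (-0.50) and Eno1 (-0.45), each past the adjusted threshold by limma.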

How the results depend on the processing

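Counts of members called are given here by setting, first under DSS. All-gene calls stand in brackets. In the epithelium 15 passed (2510), and non-mitochondrial scaling and voom each gave 6 (3086 and 3774). In endothelial cells 1 passed (377), and non-mitochondrial scaling and the term for 4 libraries rich in long transcripts each gave 2 (504 and 607). For SZN-1326-p at 24 h the epithelial count of 3 (1095) became 1 with no filter (772), 0 with the compared groups alone (0), 7 with the replicate block (2386), 5 with non-mitochondrial scaling (2189), 6 with voom (2145) and 1 without both mice of high mitochondrial share (360). At 48 h the epithelial count of 6 (1345) became 11 with the compared groups alone (1887), 13 with the replicate block (2399) and 11 with the long-transcript term (2556), and that term gave 1 in fibroblasts (109) in place of 0 (13). The count of 1 for the difference between times (15) became 0 with no filter (1), with the compared groups alone (6), with non-mitochondrial scaling, with voom and without the high-mitochondrial mice (0 in each), and 2 with the long-transcript term (60). The cause of these shifts was not tested. The replicate block changed no other count by over 1.5 times, and deviations of same-numbered epithelial libraries correlated at -0.30 to 0.44 between SZN-1326-p and anti-GFP mice, -0.15 to 0.53 between SZN-1326-p and uninjured mice and -0.22 to 0.34 between anti-GFP and uninjured mice. With signs mixed, the numbers were not taken to pair the mice. The libraries numbered 1 at 24 h, however, correlated at 0.34 to 0.53 in every pair, and all of them are rich in long transcripts.

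Leaving out each mouse gave, under DSS, 4 to 17 calls in the epithelium, 7 to 13 in fibroblasts, 1 to 2 in endothelial cells, 20 to 24 in myeloid cells, 10 to 15 for epithelium minus fibroblast, 9 to 14 in AltEnteroPC, 5 to 7 in BaseCryptFB2 and 4 to 12 in CryptFB1. For SZN-1326-p it gave 0 to 6 at 24 h, 3 to 7 at 48 h and 0 to 1 for the difference between times in the epithelium, and 0 elsewhere.

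Some epithelial differences that had not passed changed sign. Under DSS, non-mitochondrial scaling and voom turned P4ha1 to 0.14 and 0.18, Pgk1 to 0.12 and 0.15, Vegfa to 0.0528 and 0.0725, Bnip3 to 0.0313 and 0.051, Hif1a to 0.20 and 0.22, and Epas1 to 0.12 and 0.14. At 24 h they turned Bnip3 to -0.45 and -0.50, and the long-transcript term turned P4ha1 to 0.0081. Leaving out 1 mouse gave -0.101 to 0.0401 for P4ha1, -0.2964 to 0.0261 for Ldha and -0.0438 to 0.6003 for Bnip3 at 24 h, and -0.9173 to 0.0506 for Bnip3 at 48 h, the last without anti-GFP mouse 1. Low cell numbers limit the endothelial values (26 to 113 cells per mouse), the uninjured myeloid values (49 to 76) and the AltEnteroPC values of uninjured mice (20, 22 and 56).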
